A study of Arabidopsis thaliana with 51 samples.

Results

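Flowers of Arabidopsis Col plants that carried the construct AGp and had the phenotype Sterile were compared with wild-type Col flowers. The comparison rests on 4 of the 51 bisulfite libraries of the series, chosen by their labelled genotype, construct and flower phenotype. They are 2 Col AGp Sterile libraries, called Sterile 1 and Sterile 2 here because their labels carry no replicate letter, and 2 Col Wt libraries of the same set, labelled A and C. All 4 came from young flowers in the Col background, and each pooled flowers of 5 to 10 lines that shared a phenotype, so a level is an average over lines and cells. Growth was under 16 h light and 8 h dark, over 4 to 5 weeks, for all 4. The labels do not say whether the pools of a group held different lines, nor whether the Col Wt lines carried a construct, so p-values measure only the spread between these libraries. The labels spell out neither AGp nor AGe, and they do not name the promoter that drives a construct. Sterility and flower structure could not be checked here, because the table holds DNA methylation and no expression.

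The construct names refer to AG (AGAMOUS, AT4G18960), a MADS-box transcription factor gene that specifies stamens and carpels and ends the activity of the floral meristem. Plants methylate cytosine in 3 contexts, CpG, CHG and CHH, where H is A, C or T. In Arabidopsis, CpG methylation is copied at replication by MET1, CHG methylation is kept by CMT3 together with a histone mark, and CHH methylation depends on CMT2 or on RNA-directed DNA methylation (RdDM), in which small RNAs guide DRM2. RdDM can place methylation in all contexts over a transcribed or promoter sequence, and in a plant that carries a matching construct also at the endogenous gene. Methylation in all contexts is not specific to RdDM, however, since CHH can depend on CMT2 too. Which pathway acts here was not tested. Construct copies and the endogenous AG locus cannot be told apart in these data.

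The levels cover 17298 bp, from 10374202 to 10391499 in TAIR10. No chromosome is named in the files. From the construct names it was read as the AG region, and AG is a chromosome 4 gene in the TAIR10.1 gene table, where its neighbours are the protein-coding AT4G18970 and AT4G18950 and a long noncoding RNA, AT4G06860. Exons, introns and promoters were not located. Of 5709 cytosines listed, 5352 were analysed after rows were brought into register, made up of 574 CpG, 675 CHG and 4103 CHH. A level is the deposited whole percent of methylation at a cytosine, with no read counts, so the depth behind each level is unknown and a 0 can stand for an unmethylated or an uncovered cytosine. Over the region, 826 cytosines were above 0 in Sterile 1 and 888 in Sterile 2, against 261 in Wt A and 350 in Wt C.

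Regions were taken from a library outside the comparison, the single Col AGp//AGe sMf library, which carries a construct with AGp in its name. Its runs of 100-bp windows at 10% or more gave an AGp domain of 2200 bp (10380602 to 10382801, 607 cytosines), an AGe domain of 2800 bp (10384302 to 10387101, 760 cytosines) and a CpG-only domain of 500 bp (10377002 to 10377501). In the AGp, AGe and CpG-only domains 17, 25 and 2 windows reached 10%, and the others were bridged gaps. These bounds were drawn after the data had been seen, without use of the Sterile and Wt levels. The names AGp domain and AGe domain are working names and do not say which DNA the constructs hold.

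Sterile flowers were methylated far above Wt flowers in the AGp domain, and the groups lay close together in most of the rest. Across the 172 windows of the region, the level was higher in both Sterile libraries than in both Wt libraries in 40 (23.3%). Inside the AGp domain 20 of 22 windows did so, against 20 of the 150 windows outside it. The largest difference of group means outside was 13.2 percentage points, in the window that adjoins the downstream end of the domain.

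**Figure D1:**
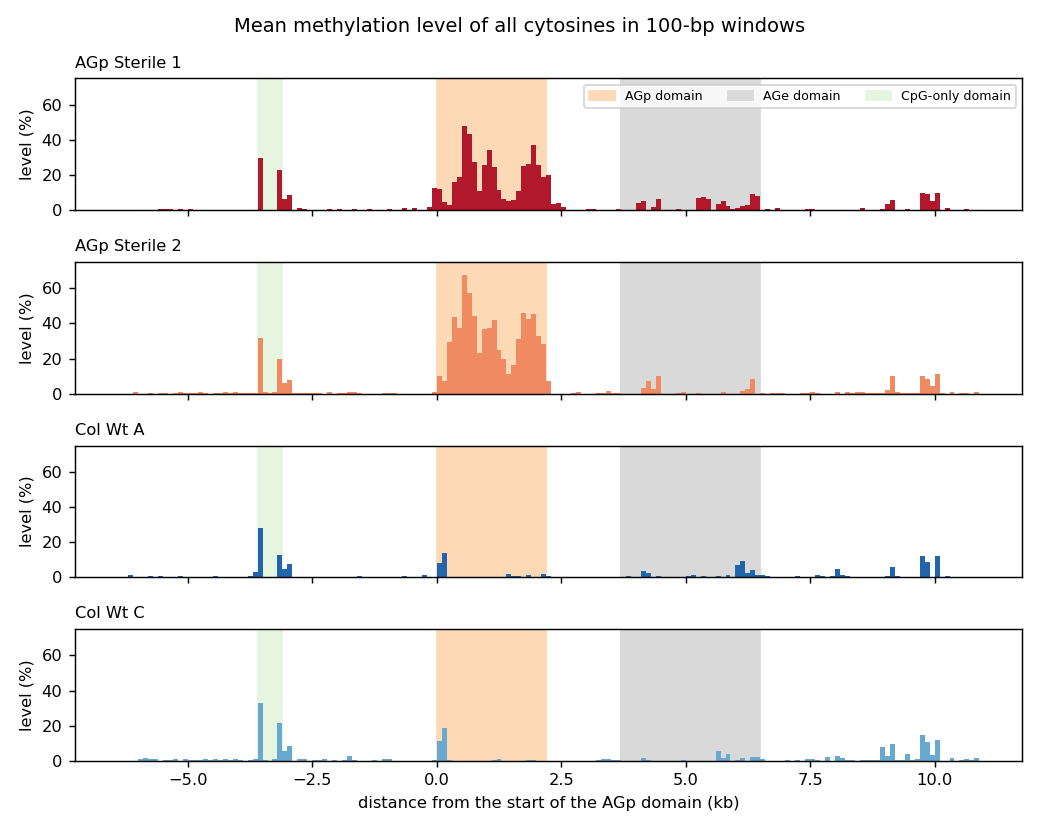
Mean methylation level (percent, all contexts) in 100-bp windows along the region, as distance in kb from the start of the AGp domain, for Sterile 1, Sterile 2, Wt A and Wt C. Both Sterile libraries form 1 block of high windows over the AGp domain, where the Wt libraries reach at most 13.7% and 18.9%.

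Over the 607 cytosines of the AGp domain the mean level was 20.8% in Sterile 1 and 33.9% in Sterile 2, against 1.26% in Wt A and 1.51% in Wt C. The groups did not overlap, with means of 27.3% ± 9.24 for Sterile and 1.38% ± 0.179 for Wt (SD, n = 2 each). The spread between the Sterile libraries was far wider than that between the Wt libraries, and the difference of 26.0 points exceeded both. Because 2 libraries against 2 cannot give less, the two-sided exact permutation p was 0.33 for this difference, the smallest value possible, with 0.741 after Benjamini-Hochberg adjustment over 20 level differences.

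Averaged over the whole domain, the difference was wider for CHG and CHH than for CpG. CHG, the context kept by CMT3, was at 29.4% and 49.7% in Sterile 1 and 2, against 2.42% and 1.07% in Wt A and C, a difference of 37.8 points over 57 cytosines. CHH was at 19.9% and 32.0% in Sterile 1 and 2, against 0.561% and 0.843% in Wt A and C, a difference of 25.3 points over 522 cytosines. In both contexts each Sterile library lay far above each Wt library. CpG was at 19.5% and 36.0% in Sterile 1 and 2, against 11.8% and 14.8% in Wt A and C, a difference of 14.4 points over 28 cytosines. The CpG groups did not overlap either, but this difference hung on the Sterile library used: it was 6.14 points without Sterile 2 and 22.7 points without Sterile 1. It also joined CpG groups whose means went in opposite directions. The 6 CpG at 30% or more in both Wt libraries averaged 25.8% in Sterile and 60.1% in Wt. Both Sterile libraries lay below both Wt libraries at 4 of the 6. The other 22 were at 18.0% and 38.6% in Sterile 1 and 2, against 1.14% and 0 in Wt A and C, or 27.7 points higher. This split uses the Wt levels, so it favours lower values in Sterile for the 6 and leaves the 22 little room to fall. With the domain drawn at 20% instead of 10%, the differences were 28.1 points for CpG, 28.6 for CHH and 47.3 for CHG, so the gap between CpG and CHH depended on the bounds. The exact permutation p was 0.33 in each context, again the smallest possible.

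**Figure D2:**
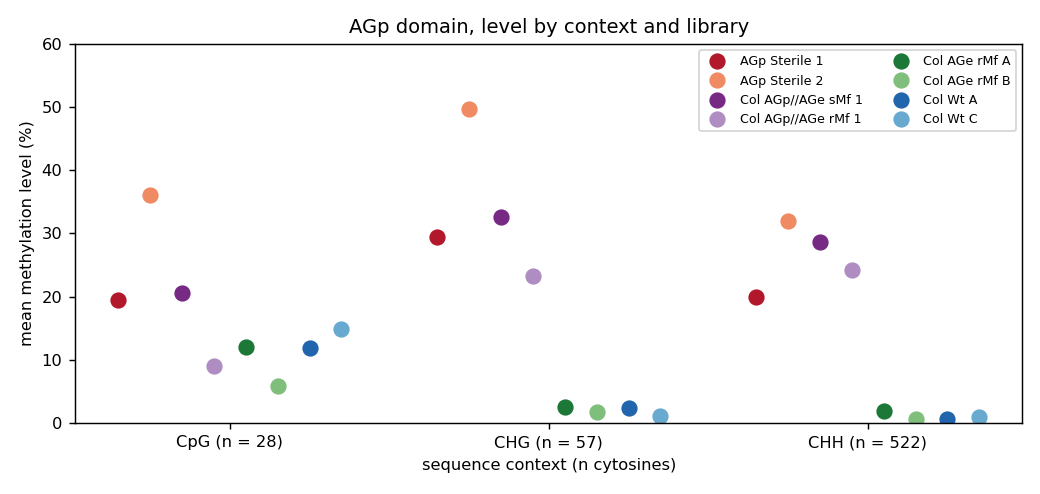
Mean level (percent) of each library in the AGp domain by context, with 1 point a library and, from left to right, Sterile 1 and 2, the AGp//AGe libraries, the AGe rMf libraries and Wt A and C. Sterile lies above Wt in every context, by 37.8 points in CHG, 25.3 in CHH and 14.4 in CpG.

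The rows of the table fall into column blocks that had to be brought into register separately. Sterile 1 and Wt A share column block 1, while Sterile 2 and Wt C share column block 2. Within block 1 Sterile was 19.5 points higher in the AGp domain, and within block 2 it was 32.4 points higher. By context, the differences within blocks 1 and 2 were 26.9 and 48.7 points for CHG, 19.4 and 31.2 points for CHH, and 7.64 and 21.2 points for CpG. Sterile was the higher in each block and context.

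The gain was spread over most cytosines of the domain. In Sterile 1 and Sterile 2, 541 and 550 of the 607 cytosines were above 0, against 30 in Wt A and 31 in Wt C. Such counts depend on depth, which is unknown and may differ between libraries, so a low level can be listed as 0. The lowest level above 0 in the domain was 1% in each Sterile library, against 7% in Wt A and 6% in Wt C. A level of 1% takes many reads, so the counts of the groups may rest on unlike depth, which was not tested. Over the region 38 of 574 CpG (6.62%) were higher in both Sterile libraries than in both Wt libraries, and 20 of these were among the 28 CpG of the domain. Both Sterile libraries were above 0 and both Wt libraries at 0 at 486 cytosines, and 33 were at 0 in all 4 libraries. The level was higher in both Sterile libraries than in both Wt libraries at 500 of the 607 cytosines of the domain (20 CpG, 46 CHG and 434 CHH), against 530 of 5352, or 9.9%, over the region. Both Sterile libraries lay below both Wt libraries at 11 cytosines, against 28 of 5352 (0.523%) over the region.

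CHG cytosines reached higher levels than CHH cytosines. At least 50% was reached by 13 and 36 of 57 CHG cytosines in Sterile 1 and 2 (22.8% and 63.2%), and by 1 and 0 in Wt A and C. For CHH the count was 25 and 88 of 522 in Sterile 1 and 2 (4.79% and 16.9%), and 0 in Wt A and in Wt C. Median levels in Sterile 1 and 2 were 26% and 62% for CHG, 17% and 32% for CHH, and 7.5% and 34% for CpG, with every Wt median at 0. So the median CpG of Sterile 1 was lower than its median CHH, while in Sterile 2 the CpG and CHH medians were close.

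Mean levels also differed with the base after the cytosine, more within CHG than within CHH, although few CCG were there. In plants CCG is known to be methylated differently from CAG and CTG. The 52 CAG and CTG cytosines were at 30.5% and 51.3% in Sterile 1 and 2, against 1.08% and 0.442% in Wt A and C. The 5 CCG cytosines were at 17.4% and 33.2% in Sterile 1 and 2, against 16.4% and 7.60% in Wt A and C. The pair in block 1 differed little. Single CCG differed widely: in Sterile 1 and 2, 10382712 was at 48% and 67% and 10382715 at 31% and 69%. The others were at 0 and 15% (10380689), 7% and 2% (10380750), and 1% and 13% (10382114). Much of the Wt mean came from 10380689, at 57% and 38% in Wt A and C. Base and position cannot be told apart for CCG here. Among CHH, the 411 cytosines followed by A or T were at 21.0% and 33.1% in Sterile 1 and 2, against 0.608% and 0.810% in Wt A and C. The 108 cytosines followed by C were at 16.6% and 28.7% in Sterile 1 and 2, against 0.398% and 0.991% in Wt A and C. On average, cytosines followed by C were thus the less methylated in both Sterile libraries, a description with no test.

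Both strands carried the methylation. CHH on the minus strand (211 cytosines) was at 23.1% and 34.2% in Sterile 1 and 2, and CHH on the plus strand (308 cytosines) was at 17.9% and 30.9%. CHG was at 30.8% and 51.3% on the minus strand and at 27.9% and 48.1% on the plus strand in Sterile 1 and 2. Sterile 2 was at 0 at 20 plus-strand cytosines in a row, from 10382020 to 10382132. Without that stretch CHG was at 53.2% on the minus and 53.8% on the plus strand in Sterile 2, and at 34.4% and 30.2% in Sterile 1, while CHH was still the higher on the minus strand, at 34.2% against 32.6% in Sterile 2. In the 26 CHG dyads, the paired cytosines of a symmetric site, the median difference between strands was 7.0 points in Sterile 1 and 8.5 points in Sterile 2. In the 14 CpG dyads it was 4.0 and 5.5 points, although a single CpG dyad of Sterile 1 read 0% on a strand and 100% on the other.

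The gain was uneven along the domain. The highest window, 10381102 to 10381201, was at 48.1% and 67.8% in Sterile 1 and 2, with every cytosine at 0 in both Wt libraries. The next window was at 43.4% and 57.4% in Sterile 1 and 2. A later peak lay near the downstream end, where the window from 10382502 was at 37.4% and 45.2% in Sterile 1 and 2, against 0.366% and 0.683% in Wt A and C. Between these peaks, the window from 10382002 was at 5.12% and 11.3% in Sterile 1 and 2, against 1.60% and 0 in Wt A and C. In Sterile 2 this mean joined 14 plus-strand cytosines that were all at 0 and 10 minus-strand cytosines at 28.2%. In Sterile 1 the strands were at 4.29% and 6.80%. Whether the zeros of Sterile 2 are uncovered cytosines was not tested, so its level there is uncertain. Sterile 2 was the higher in 21 of 22 windows.

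**Figure D3:**
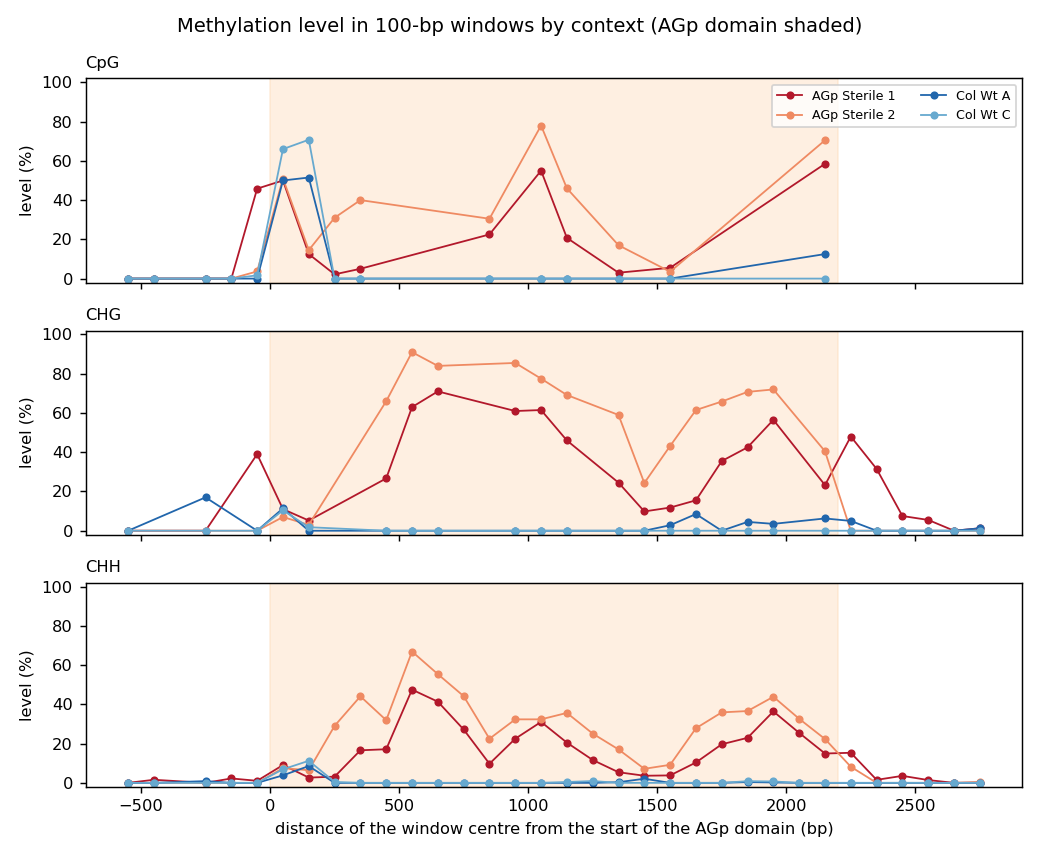
Mean level (percent) in each 100-bp window of the AGp domain and its flanks, by context, as distance from the start of the domain in bp, for Sterile 1, Sterile 2, Wt A and Wt C. In CHH, Sterile 1 and 2 rise to an early peak (47.5% and 66.9%) and a later one (36.4% and 43.9%), with lower windows between them.

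The windows with the largest gains differed by context. For CHG the window from 10381202 (2 CHG) was highest, at 71.0% and 84.0% in Sterile 1 and 2 and 0 in both Wt libraries. For CHH it was the window from 10381102 (25 CHH), at 47.5% and 66.9% in Sterile 1 and 2 and 0 in both Wt libraries. For CpG it was the window from 10381602 (2 CpG), at 55.0% and 78.0% in Sterile 1 and 2 and 0 in both Wt libraries. A further CpG gain lay in the window from 10382702 (2 CpG), at 58.5% and 70.5% in Sterile 1 and 2, against 12.5% and 0 in Wt A and C. The CHG and CpG values thus rest on few cytosines. All these windows lie inside the AGp domain.

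Single cytosines were tested with limma on log2 odds of the level, in a fit over Sterile, Wt and the 2 Col AGe rMf libraries, with Benjamini-Hochberg adjustment over the 1507 cytosines above 0 in at least 2 of the 6 libraries. At an adjusted p under 0.05, 431 were higher in Sterile than in Wt (28.6%) and 8 were lower (0.531%). Of the 607 cytosines of the AGp domain, 537 were tested, and 443 of these passed the filter through the Sterile libraries alone, so the share of these that was called is given as a description only. In the domain 415 rose and 2 fell: 11 of 28 CpG, 38 of 57 CHG and 366 of 522 CHH rose. The other 70 cytosines of the domain were not tested. The count depends on both Sterile libraries being there to pass the filter: with the filter applied anew, 1 cytosine of the domain was higher without Sterile 1 and 1 without Sterile 2, as only 93 and 91 were tested. With the same cytosines tested, 444 were higher without Sterile 1 and 444 without Sterile 2. Lower calls over the region numbered 28 without Wt A, 38 without Wt C, 2 without Sterile 1 and 5 without Sterile 2.

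The named gains were near 0 in Wt and high in Sterile. In CHG, position 10381103 was at 63% and 91% in Sterile 1 and 2, position 10381541 at 65% and 86%, position 10381539 at 57% and 85%, and position 10381620 at 59% and 82%, all at 0 in both Wt libraries. The limma adjusted p of the 5 largest CHG gains lay between 0.000976 and 0.0193. The call at 10381541 was lost when any of the 4 libraries was left out. In CHH the 5 largest gains lay close together, between 10381164 and 10381196. Position 10381164 was at 66% and 80% in Sterile 1 and 2, position 10381171 at 59% and 87%, position 10381177 at 68% and 84%, and position 10381190 at 63% and 83%, all at 0 in both Wt libraries. Their limma adjusted p lay between 0.000573 and 0.00319. The 5 CHH gains, and the CHG gains other than 10381541, were at 0 in both Col AGe rMf libraries too. They passed the filter through the Sterile libraries alone, so their p is given as a description only.

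CpG gains were fewer and more scattered. Position 10382713 was at 67% and 74% in Sterile 1 and 2 and 0 in both Wt libraries, with a log2 odds difference of 7.90 ± 0.26 (SE, limma adjusted p = 0.000222). Both Col AGe rMf libraries were at 0 there too, so it passed the filter through the Sterile libraries alone. Its SE and p are therefore given as a description only. Position 10381638 was at 54% and 80%, position 10381769 at 38% and 64%, and position 10381439 at 26% and 35% in Sterile 1 and 2, again with both Wt libraries at 0. The fifth, at 10390586, lies far outside the AGp domain and was at 53% and 27% in Sterile 1 and 2 and 0 in both Wt libraries. It was also at 21% and 22% in the Col AGe rMf libraries A and B, and its call was lost with the 5 Col Wt libraries of all sets as the comparison.

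At the upstream end of the domain the direction turned, though not in CHG. The window from 10380702 to 10380801 was at 4.76% and 7.04% in Sterile 1 and 2, against 13.7% and 18.9% in Wt A and C. Its 4 CpG cytosines carried most of this, at 12.5% and 14.5% in Sterile 1 and 2, against 51.5% and 70.8% in Wt A and C. Its CHH cytosines were at 2.69% and 6.44% in Sterile 1 and 2, against 8.56% and 11.3% in Wt A and C. Both Sterile libraries lay below both Wt libraries in each of these means, in the domain whose other windows were mostly higher in Sterile. Its CHG were low in all 4 libraries. Positions 10380735, 10380750 and 10380763 were at 6% and 7%, 7% and 2%, and 4% and 3% in Sterile 1 and 2, with both Wt libraries at 0. Position 10380737 was at 3% and 0, also with Wt at 0, and 10380761 at 6% and 3%, against 0 and 9% in Wt A and C.

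These 4 CpG form 2 dyads. Position 10380749 was at 10% and 15% in Sterile 1 and 2, against 50% and 78% in Wt A and C. Position 10380764 was at 12% and 14% in Sterile 1 and 2, against 40% and 64% in Wt A and C, and position 10380765 was at 8% and 18%, against 45% and 58%. Position 10380748 was at 20% and 11% in Sterile 1 and 2, against 71% and 83% in Wt A and C. None of the 4 passed the limma test, with adjusted p of 0.0718, 0.469, 0.147 and 0.520 at positions 10380748, 10380749, 10380764 and 10380765. The test did call 2 CHH cytosines of this window lower, 10380722 and 10380724, each at 0 in both Sterile libraries and at 14% and 20% in Wt A and C (limma adjusted p = 0.000573 each). Both were at 0 in both Col AGe rMf libraries too. They passed the filter through the Wt libraries alone, so this p is given as a description only. The call at 10380724 was lost with all 5 Col Wt libraries, and both were lost with rows as deposited.

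**Figure D4:**
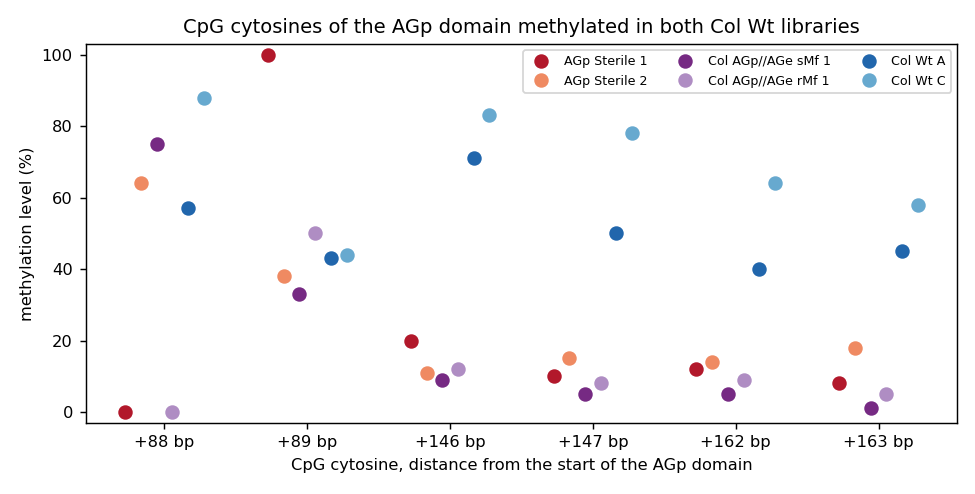
Level (percent) of each of the 6 CpG of the AGp domain that were at 30% or more in both Wt libraries, by distance from the start of the domain, with 1 point a library: Sterile 1 and 2, the AGp//AGe libraries, then Wt A and C. At the 4 CpG on the right both Sterile libraries are at 8% to 20% and both Wt libraries at 40% or more.

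The same 4 CpG were low in other libraries with AGp in their construct. Across the positions in order they were at 9%, 5%, 5% and 1% in Col AGp//AGe sMf and at 12%, 8%, 9% and 5% in Col AGp//AGe rMf. In the Col AGe rMf libraries, whose construct name has no AGp, they were at 43%, 29%, 29% and 29% in A and at 67%, 0, 17% and 0 in B. Low levels were thus not confined to libraries with AGp. At 10380749 and 10380765 Col AGe rMf B lay below both Sterile libraries, and at 10380764 its 17% was close to their 12% and 14%. In the 3 Col Wt libraries of the other sets they ranged from 15% to 67%. The levels in Sterile overlapped these at 10380765, where 18% in Sterile 2 stood against 15% in the lowest Wt library.

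CpG cytosines that were methylated in Wt lay closer together between the groups elsewhere. Over the region 48 CpG were at 30% or more in both Wt libraries, a selection on Wt levels that favours lower values in Sterile and so gets no test. Those 14 in the CpG-only domain averaged 84.6% and 86.7% in Sterile 1 and 2, against 86.5% and 91.3% in Wt A and C. The 28 outside the 3 domains averaged 60.2% and 61.0% in Sterile 1 and 2, against 64.0% and 71.2% in Wt A and C. The 6 in the AGp domain averaged 25% and 26.7% in Sterile 1 and 2, against 51.0% and 69.2% in Wt A and C. The remaining 2 of the 6 form a dyad in which the Sterile libraries differed: position 10380690 was at 0 and 64% in Sterile 1 and 2, against 57% and 88% in Wt A and C, and position 10380691 at 100% and 38%, against 43% and 44%. Both Sterile libraries lay below both Wt libraries at 4 of these 6, at 3 of 14 in the CpG-only domain and at 6 of 28 outside, beside 18 of all 574 CpG of the region (3.14%), most of which are at 0 in Wt and cannot be lower. Both Sterile libraries lay above both Wt libraries at 0 of the 6, at 3 of the 14 and at 5 of the 28, so outside the AGp domain higher and lower counts were close.

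The 2 Sterile libraries differed from each other in amount over most of the domain, and at its upstream part also in place. Sterile 2 was higher at 493 of the 607 cytosines, Sterile 1 at 65, and 49 were equal, with a median difference of 13.0 points. The mean of Sterile 2 was 1.63 times that of Sterile 1 over all contexts, 1.85 times in CpG, 1.69 times in CHG and 1.61 times in CHH. As a description across the 607 cytosines, which share their libraries and neighbouring reads, Pearson's r between the 2 was 0.788. It was 0.809 over CHH, 0.783 over CHG and 0.577 over the 28 CpG. Such values were not particular to the Sterile pair. Sterile 1 against Col AGp//AGe rMf gave 0.760 over all 607, 0.788 over CHH, 0.807 over CHG and 0.895 over CpG. Sterile 2 against that library gave 0.661, 0.720, 0.709 and 0.417 in the same order.

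**Figure D5:**
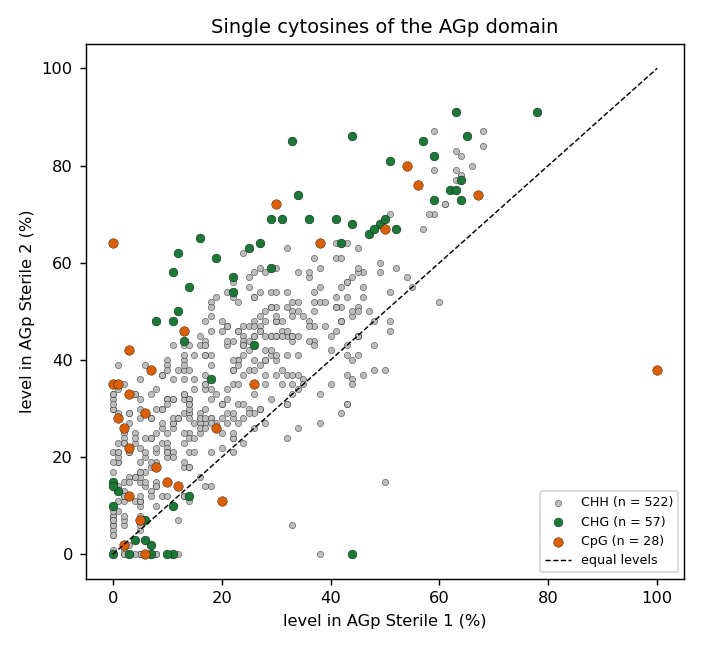
Level (percent) at each cytosine of the AGp domain in Sterile 2 against Sterile 1, by context, with the line of equal levels. Of 607 cytosines 493 lie above the line and 65 below it.

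The Sterile libraries were furthest apart in the windows from 10380802 and 10380902. In the window from 10380902 Sterile 1 was at 15.9% and Sterile 2 at 43.8%, against 0 in both Wt libraries. In the window from 10380802 Sterile 1 was at 2.97% and Sterile 2 at 29.4%, against 0 in Wt A and 0.375% in Wt C. The gap was also there at its CpG: position 10380834 was at 0% in Sterile 1 and 35% in Sterile 2, and position 10380892 at 6% and 29%. Just upstream of the domain the order was the other way, since the window from 10380502 was at 12.5% in Sterile 1 and 0.733% in Sterile 2, against 0 and 0.33% in Wt A and C. That mean rested on 6 cytosines above 0 in Sterile 1 and 2 in Sterile 2, and no cytosine there was called.

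Downstream of the domain, the adjoining window was also higher in both Sterile libraries. The window from 10382802 was at 20.0% and 7.04% in Sterile 1 and 2, against 0.714% and 0 in Wt A and C. Of its 28 cytosines only 12 were above 0 in Sterile 1 and 8 in Sterile 2, and the depth behind them is unknown. The window held 6 of the 16 cytosines called higher outside the domain, all CHH. Among them were 10382815 at 60% and 40% in Sterile 1 and 2 and 10382822 at 50% and 25%, with both Wt libraries at 0. The last of them was 10382856. In the next window Sterile 1 was at 3.68% and Sterile 2 at 0, with both Wt libraries at 0.

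The AGe domain stayed low in Sterile. Its mean level was 2.71% and 1.51% in Sterile 1 and 2, against 1.47% and 0.680% in Wt A and C, so each Sterile library was above its block's Wt library, by 1.23 and 0.834 points, and the group difference was 1.03 points (exact permutation p = 0.33). It was 0.438 points without Sterile 1, 0.638 without Wt C and 1.63 without Sterile 2. Of 753 cytosines tested there, 4 were higher and 2 were lower. Those 4 were CHG 10385856, at 17% and 14% in Sterile 1 and 2, CHG 10386328 at 25% and 20%, CHH 10386337 at 25% and 17%, and CHH 10386961 at 12% and 20%, all with both Wt libraries at 0. The same 4 were at 50%, 67%, 49% and 44% in Col AGe rMf A.

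Outside the 3 domains the groups lay close together. CpG was at 5.99% and 5.46% in Sterile 1 and 2, against 5.30% and 7.24% in Wt A and C, CHG at 0.924% and 0.393%, against 0.264% and 0.406%, and CHH at 0.439% and 0.441%, against 0.217% and 0.479%. The libraries of the groups overlapped in every context. In the CpG-only domain CpG was at 65.3% and 64.8% in Sterile 1 and 2, against 50.8% and 68.4% in Wt A and C, again with overlap, and no cytosine among 26 tested was called by limma there.

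Libraries with a combined construct reached like levels in the AGp domain. The mean level was 27.3% ± 9.24 in Sterile (SD, n = 2), 28.7% in the single Col AGp//AGe sMf library that defined the domain, and 23.4% in the single Col AGp//AGe rMf library. In CHG these libraries were at 32.5% and 23.2%, and in CHH at 28.7% and 24.2%, all within the range of Sterile 1 and 2 except CHG in Col AGp//AGe rMf, which was lower. CpG was at 20.5% in Col AGp//AGe sMf and 9.07% in Col AGp//AGe rMf, which is below both Sterile libraries and both Wt libraries. In the AGe domain the Sterile libraries, at 2.71% and 1.51%, stood far from 34.9% and 34.6% in Col AGp//AGe sMf and rMf. With AGe alone the picture was the opposite one: Col AGe rMf A and B were at 2.38% and 0.977% in the AGp domain and at 36.5% and 33.2% in the AGe domain.

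The low Wt level in the AGp domain needs a remark on coverage. Wt A was at 0 at 345 cytosines in a row, from 10380767 to 10381980, and Wt C had a run of 349 at 0 from 10382593 to 10383899. On the plus strand alone Wt A was at 0 at 324 cytosines in a row, from 10380769 to 10382800, and Wt C at 159, from 10380769 to 10381796. Over the run of Wt A, Sterile 1 and 2 averaged 22.6% and 38.5%, and Wt C averaged 0.142% with 4 cytosines above 0. The 3 Col Wt libraries of the other sets averaged 1.14%, 0.579% and 0.409% over the 279, 247 and 328 of those cytosines at which they have a value. As listed, Sterile was thus far above every Col Wt library in this stretch. The 3 libraries of the other sets were above 0 there at only 23, 15 and 17 cytosines. Their zeros can stand for uncovered cytosines too, so they do not settle the coverage of Wt, which was not tested.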

How the data were processed

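Pooled young flowers gave genomic DNA for bisulfite sequencing, per the labels' protocols. FastQC 0.11.9, HISAT2, Bismark and the build TAIR10 are named, without roles, in the submitters' processing notes. For the conversion rate and any coverage minimum, nothing is given in the sources. The deposited values are signed whole percent scores per cytosine and library, made by the authors, in which the sign marks the strand, and the sign was removed. Levels are therefore in percent as deposited, with no counts and no depth.

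In column blocks after the first, rows slip against the coordinates. In block 2 the sign matched the strand in 65.6% of rows as deposited. A hidden Markov model of the signs (displacements up to 40 rows, sign error 0.003, rate of change 0.004, least posterior 0.9) brought this to 100%, with 94.3% of rows kept. Pearson's r across cytosines, which the model did not use, moved from 0.650 to 0.810 for Sterile 1 against Sterile 2 and from 0.343 to 0.745 for Wt A against Wt C. The 68 rows that share a coordinate were left out. No libraries held identical values. Levels were averaged over cytosines and over 100-bp windows. Domains are runs that span at least 5 windows, with gaps of up to 5 bridged and counted in the span.

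For level differences the test was an exact, two-sided permutation of libraries. For single cytosines it was limma 3.58.1 under R 4.3.3 (trended empirical Bayes, offset 0.01 in the log2 odds). M317 and M318 libraries were not in the fit, since many are listed at 0 over much of the AGp domain. Col AGe rMf A and B, which were in the fit, were above 0 at only 64 and 18 of its 607 cytosines. A log2 odds difference against libraries at 0 depends on the offset and is no bound. On simulated data, 42%, 60%, 74% and 82% of 50 cytosines shifted by 2, 4, 6 and 8 log2 units were called, with 4 calls among 1307 unshifted. The simulation shuffled residuals across the libraries of the fit. It therefore says nothing on false calls at cytosines that are above 0 in the Sterile libraries alone. Other steps used Python 3.11.15, numpy 2.4.6 and pandas 2.3.3.

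Named sites are, per context, the 5 called cytosines with the greatest gains and the 5 with the greatest losses, provided that the groups' libraries do not overlap, the 5 windows with the largest gain and loss, and the windows at the domain's edges. Other cytosines in the text were chosen after their values were seen. The libraries, domains and lists were chosen with earlier results of these data known.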

Additional observations from a re-analysis of the deposited data

How the results depend on the processing

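The level differences in the AGp domain, by context and over all contexts, and in the AGe domain over all contexts were above 0 under every alternative run. Single contexts of the AGe domain were not put through the alternatives. Over all contexts the AGp domain gave 19.4 to 32.5 points when a library was left out, 26.2 with rows as deposited and 25.6 with all 5 Col Wt libraries. For CpG the domain drawn at 20% gave 28.1 points, against 14.4. Other differences changed sign. In the CpG-only domain CpG gave 5.48 points, -3.58 within column block 2, and -3.35 to 14.3 when a library was left out. Outside the 3 domains CpG gave -0.547 points, 0.126 with rows as deposited, 0.691 within column block 1, and -1.52 to 0.426 when a library was left out. CHG there gave 0.323 and -0.0137 within column block 2, and CHH gave 0.092, -0.0518 with all Col Wt libraries, -0.0378 within column block 2, and -0.0388 to 0.223 when a library was left out. The domains redrawn at 20% gave no value for the CpG-only domain or outside.

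Against 431 cytosines higher and 8 lower, limma on the fraction called 278 higher, of which 271 lay in the AGp domain. Sterile and Wt alone, or all replicated groups of the set in the fit, called 15 lower, and all Col Wt libraries called 3 lower. When a library was left out, the calls were 37 to 534 higher, 2 to 44 lower and 1 to 444 higher in the AGp domain. With the filter applied anew, 335 were higher, 321 of them in the AGp domain, and 28 lower without Wt A, and 338, 324 and 38 without Wt C. With the cytosines tested as before, an alternative chosen after seeing the data, these were 323, 310 and 32 without Wt A and 330, 316 and 44 without Wt C. Of the 23 named cytosines none changed sign, and 18 kept their call with limma on the fraction. No paired analysis was possible because the Sterile libraries carry no replicate letter to match with A and C. With column block, which is not a replicate number, as a covariate, 398 were higher, 384 of them in the AGp domain, and 8 lower. The unknown depth limits every level, and a 0 may be an uncovered cytosine.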

Other observations

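The named losses outside the AGp domain were few, and all had both Sterile libraries at 0. CpG 10388629 was at 53% and 17% in Wt A and C, CpG 10388638 at 12% and 29%, and CpG 10377581 at 17% and 29%. CHG 10390383 was at 5% and 7% in Wt A and C. In the AGe domain CHH 10386418 was at 25% and 12% and CHH 10386216 at 9% and 17% in Wt A and C. With the filter applied anew, these limma calls were lost when a single library was left out: those at 10388629, 10388638, 10386418 and 10386216 without Sterile 1 or without Sterile 2, that at 10390383 without Sterile 1, and that at 10377581 without any of the 4. Without either Wt library the filter no longer tests 10388629, 10388638 and 10390383, so those calls go as well. With all 5 Col Wt libraries the adjusted p was 0.444 at 10388629, 0.415 at 10388638, 0.395 at 10386418 and 0.386 at 10386216, and limma on the fraction did not call these 4 either. Whether these zeros are unmethylated or uncovered cytosines was not tested.

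Among the 5 windows with the largest CpG losses, 3 lay downstream of the AGe domain. The window from 10389502 was at 2.83% and 1.33% in Sterile 1 and 2, against 0 and 47.8% in Wt A and C, so the Wt libraries disagreed. The window from 10388602 was at 0 and 1.5% in Sterile 1 and 2, against 20.7% and 14.0% in Wt A and C. The window from 10390302 was at 49.1% and 48.0% in Sterile 1 and 2, against 57.0% and 72.1% in Wt A and C. In the last 2 windows both Sterile libraries lay below both Wt libraries. The CpG gain of the window from 10389602, at 73.5% and 39.0% in Sterile 1 and 2, against 8.50% and 49.5% in Wt A and C, was not shared by the libraries, since Wt C was above Sterile 2.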
